A study of Homo sapiens with 28 samples.

Results

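The comparison concerned 2 ways of recoding metabolically labelled RNA, osmium tetroxide with ammonia (OsO4 + NH3, TUC in the library names) and sodium periodate with trifluoroethylamine at pH 5.2 (NaIO4 + TFEA, TL in the library names). The members were the libraries of these 2 chemistries, 12 of the 28 samples of the series and 12 of the 18 libraries in the deposited count table, and they were chosen by their titles. All came from HEK293T, a transformed line derived from human embryonic kidney, labelled WT and grown with 100 µM 4-thiouridine (s4U) for 2 h or without it. Within each chemistry, RNA went through drop-out handling (DO), the common protocol, or improved handling (IH), a protocol meant to limit the loss of labelled RNA. The labelled groups TL DO, TL IH, TUC DO and TUC IH held 2 libraries each, and every combination of chemistry and handling had 1 unlabelled library that served as background. Nothing in the labels says that replicates came from separate cultures, so p-values measure only the spread between these libraries. Chemistry was compared within each handling.

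In nucleotide-recoding sequencing, cells build s4U into the RNA they make during the labelling period. OsO4 + NH3 converts the thiolated base to cytidine, whereas NaIO4 + TFEA converts it to a modified base that reverse transcriptase pairs as cytidine. In both cases, RNA made during labelling carries T-to-C mismatches in its reads, and RNA that existed before it carries only background mismatches. Introns and short-lived messages are renewed quickly and are therefore rich in new RNA, and stable messages such as those of ribosomal proteins are poor in it.

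Labelled libraries held 2302209 to 4707058 reads and unlabelled ones 1935777 to 9962345 reads. Within every group the replicates differed by more than sampling noise, with a chi-square over its degrees of freedom of 2.19 to 5.96 across genes. Libraries of the 2 handlings lay far apart in the converted share, whichever the chemistry, so differences are given within each handling as well as averaged. In the unlabelled libraries, the background of both chemistries, 2.41% to 3.71% of reads carried a T-to-C mismatch.

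More reads were recoded with OsO4 + NH3 than with NaIO4 + TFEA on average in both handlings, but the groups overlapped in DO. The converted share, in percent, counts a read as converted when it carries 1 or more T-to-C mismatches. It was 22.8% and 16.8% in the TL DO libraries and 24.98% and 19.1% in the TUC DO libraries. In improved handling it stood at 47.7% and 44.3% in the TL IH libraries and 58.2% and 51.9% in the TUC IH libraries. In IH both TUC libraries lay above both TL libraries, and in DO the lower TUC library lay below the higher TL library. Between libraries of the same replicate number, TUC lay above TL in both handlings. Group means were 19.8% ± 4.27 for TL DO, 22.1% ± 4.13 for TUC DO, 45.97% ± 2.399 for TL IH and 55.0% ± 4.42 for TUC IH (SD, n = 2 each). The difference was 2.24 percentage points in DO and 9.08 in IH, and 5.66 averaged over both (7 of 8 pairs of libraries higher with OsO4 + NH3, two-sided exact permutation p = 0.111, adjusted over 8 measures 0.148). The averaged difference was smaller with HISAT2 alignments, at 1.03 points with setting D, 3.16 with ML and 3.14 with VL. With 4 libraries against 4 exchanged within handling there are 36 arrangements, so 0.0556 is the smallest p that this design allows and no single measure of a library could pass 0.05. The 95% Wilson intervals reached at most 0.0602 points to either side of a library's value and cover counting error only.

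The background differed by less than the labelled libraries. The unlabelled converted shares were 3.28% for TL DO, 3.71% for TUC DO, 2.75% for TL IH and 2.41% for TUC IH. They differed by 0.44 points between the chemistries in DO and by -0.33 in IH. Once each unlabelled value was taken off, the labelled difference was 5.61 points.

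Per T position, recoding was also higher with OsO4 + NH3 on average in both handlings. T-to-C mismatches stood at 1.53% and 1.01% of the T positions covered in TL DO, 2.23% and 1.41% in TUC DO, 3.83% and 3.10% in TL IH, and 7.15% and 5.26% in TUC IH. The higher TL DO library again exceeded the lower TUC DO library, and the IH groups did not overlap. The ratio of the means was 1.43 in DO and 1.79 in IH (difference 1.64 points, 7 of 8 pairs higher, two-sided exact permutation p = 0.111, adjusted 0.148). With HISAT2 alignments the difference was 0.220 to 1.09 points, depending on the setting. Unlabelled libraries had 0.133%, 0.172%, 0.0739% and 0.0719% in the order TL DO, TUC DO, TL IH and TUC IH.

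The reads that were recoded carried more mismatches each with OsO4 + NH3. A converted read held 1.92 and 1.64 mismatches on average in TL DO, 2.48 and 2.03 in TUC DO, 3.05 and 2.68 in TL IH, and 4.83 and 3.93 in TUC IH. Both TUC libraries lay above both TL libraries in each handling. The mean was 1.27 times as high in DO and 1.53 times as high in IH, a difference of 0.48 and 1.51 mismatches (8 of 8 pairs higher, two-sided exact permutation p = 0.0556, the smallest possible, adjusted 0.111). Other alignments gave smaller averaged differences, from 0.171 with HISAT2 D to 0.864 with STAR VL, beside 0.996 here (two-sided exact permutation p = 0.111 to 0.167). In unlabelled libraries the value ran from 1.05 to 1.27, with the OsO4 + NH3 library higher by 0.12 in DO and by 0.09 in IH. Without reads on contigs that hold ribosomal DNA, the unlabelled libraries differed by -0.01 and 0.01, and the labelled difference was 1.12 (8 of 8 pairs higher, two-sided exact permutation p = 0.0556).

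**Figure D1:**
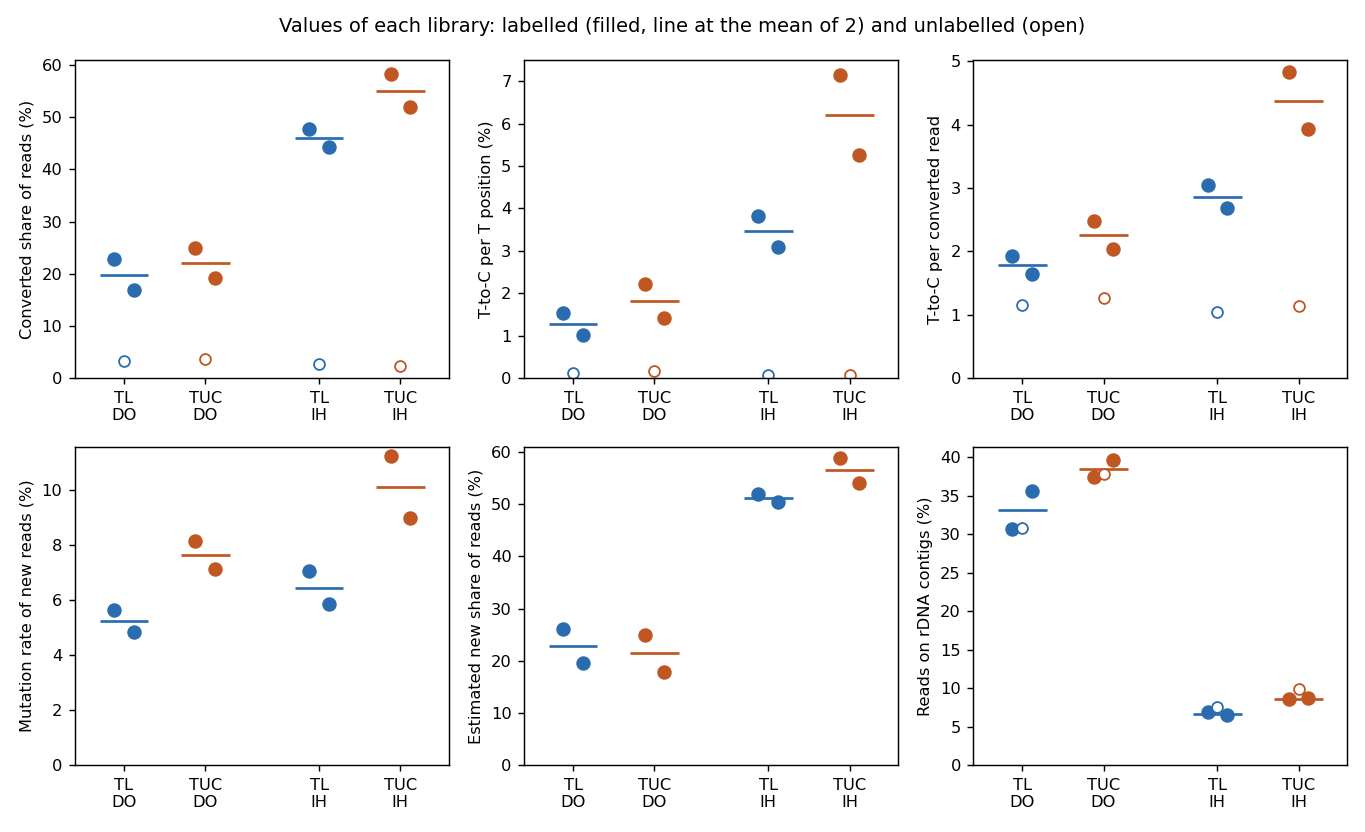
Measures of each library by chemistry (TL, NaIO4 + TFEA; TUC, OsO4 + NH3) and handling (DO or IH), with filled points for labelled libraries, a line at the mean of 2 and open points for the unlabelled library where the measure exists. Mismatches per converted read and the mutation rate of new reads separate the chemistries in both handlings, while the estimated new share of reads does not in DO.

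Heavily recoded reads were more frequent with OsO4 + NH3. Reads with 6 to 9 mismatches were 0.484% and 0.160% of TL DO, 1.58% and 0.605% of TUC DO, 5.05% and 3.09% of TL IH, and 13.3% and 9.13% of TUC IH. Reads with 10 or more mismatches were 0.497% and 0.203% of TL IH against 5.69% and 2.52% of TUC IH, and 0.0265% and 0.0286% of TL DO against 0.424% and 0.247% of TUC DO. In both classes the TUC libraries lay above the TL libraries in each handling (two-sided exact permutation p = 0.0556 for each class). Unlabelled libraries held at most 0.0291% and 0.0160% of reads in these classes. Reads with exactly 1 mismatch went the other way on average, by -1.75 points (two-sided exact permutation p = 0.167).

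Introns of nuclear genes showed this shift as well. Among their reads, those with 1 mismatch were 14.4% and 13.2% in TL DO, 9.69% and 10.8% in TUC DO, 14.7% and 17.5% in TL IH, and 7.96% and 10.9% in TUC IH. Those with 6 to 9 mismatches were 2.98% and 0.682% in TL DO, 9.40% and 2.72% in TUC DO, 10.8% and 6.87% in TL IH, and 24.0% and 18.6% in TUC IH, with an overlap in DO (two-sided exact permutation p = 0.111). Those with 10 or more mismatches were 0.129% and 0.0365% in TL DO, 2.07% and 0.564% in TUC DO, 1.10% and 0.441% in TL IH, and 10.8% and 5.27% in TUC IH. Reads with 1 mismatch were thus fewer in every TUC library than in any TL library of the same handling, and reads with 10 or more were more frequent (two-sided exact permutation p = 0.0556 for each).

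**Figure D2:**
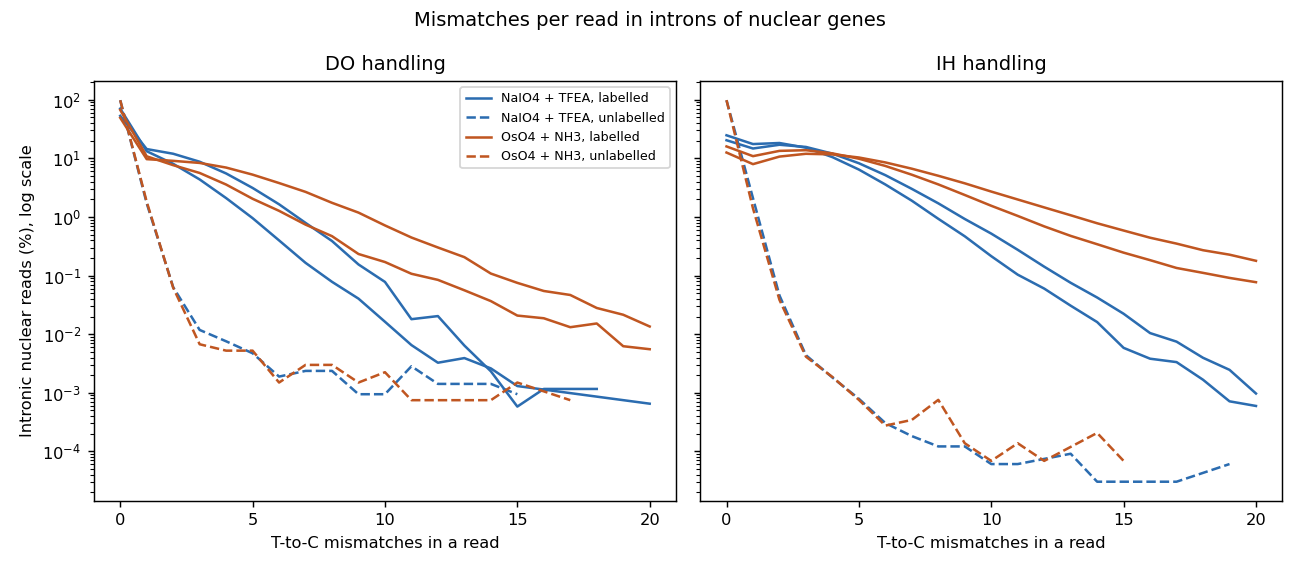
Percent of reads in introns of nuclear genes (log scale) by the number of T-to-C mismatches in a read, 1 line per library, solid for labelled and dashed for unlabelled. The lines of labelled OsO4 + NH3 libraries fall off more slowly than those of NaIO4 + TFEA libraries in both handlings, and the unlabelled libraries hold at most 0.0633% of these reads at 2 mismatches.

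A mixture of 2 binomial components had old reads at the mutation rate of the unlabelled library and new reads at their own rate. It estimated how strongly new reads were recoded and how many reads were new. Both estimates depended on the background rate, with values given for classes of RNA below. The mutation rate of new reads, T-to-C mismatches per T position, was estimated at 5.64% and 4.84% in TL DO, 8.15% and 7.13% in TUC DO, 7.07% and 5.85% in TL IH, and 11.2% and 8.98% in TUC IH. No TL library reached a TUC library of its handling. The means were 8.87% with OsO4 + NH3 and 5.85% with NaIO4 + TFEA, a difference of 2.40 points in DO and 3.65 in IH (8 of 8 pairs higher, two-sided exact permutation p = 0.0556, adjusted 0.111).

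The estimated share of new reads did not separate the chemistries. It was 26.2% and 19.5% in TL DO, 25.0% and 17.9% in TUC DO, 51.8% and 50.4% in TL IH, and 58.9% and 54.1% in TUC IH. In DO the chemistries overlapped, with a difference of -1.42 points, and in IH both TUC libraries were above both TL libraries, with a difference of 5.40 points. Averaged over handlings the difference was 1.99 points (5 of 8 pairs higher, two-sided exact permutation p = 0.5, adjusted 0.5). With 1 library left out it was 0.23 to 3.75 points, lowest without TUC DO replicate 1 and highest without TUC DO replicate 2. Without reads on contigs that hold ribosomal DNA it was 3.64 points (7 of 8 pairs higher, two-sided exact permutation p = 0.222), with 0.75 in DO and 6.53 in IH. Over all reads, the difference between the handlings was itself 6.82 points (two-sided exact permutation p = 0.222).

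In IH the chemistries lay apart in reads with many T positions and overlapped in those with few, and in DO they overlapped in both. Among reads with 60 or more T positions, 68.1% and 67.5% were converted in TL IH and 82.7% and 78.7% in TUC IH. Among reads with 1 to 19 T positions, the values were 30.3% and 25.0% in TL IH and 30.4% and 24.8% in TUC IH, which overlapped. In DO, reads with 60 or more T positions were converted to 42.8% and 29.7% in TL and 50.9% and 38.1% in TUC, and reads with 1 to 19 to 19.4% and 14.7% in TL and 18.7% and 15.5% in TUC. The mean number of T positions per read differed by -0.29 between the chemistries in DO and by 0.92 in IH. Averaged over handlings it differed by 0.31 (two-sided exact permutation p = 0.5), and by 1.24 without reads on contigs that hold ribosomal DNA (8 of 8 pairs higher, two-sided exact permutation p = 0.0556). The converted share standardised to 1 distribution of T positions differed by 5.13 points (two-sided exact permutation p = 0.167).

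Classes of RNA were compared next. Reads of nuclear exons come mostly from mature messages, and those of nuclear introns from unspliced precursors. Reads of the mitochondrial genome come from its own transcripts. Chromosome 21 with 2 unplaced contigs (KI270733.1 and GL000220.1) holds ribosomal DNA. Reads on the last 3, which include those of other genes on chromosome 21, are called rDNA contig reads. In all 4 classes new reads had a higher estimated mutation rate with OsO4 + NH3, in 8 of 8 pairs each (two-sided exact permutation p = 0.0556 for each class). The size of the difference depended on the background rate: taken from the unlabelled library it was 3.26 points in introns, 1.14 in mitochondrial RNA and 2.55 on rDNA contigs, and with a background rate estimated in the labelled library 5.41, 1.89 and 8.53.

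In nuclear introns the mutation rate of new reads was 5.89% and 4.38% in TL DO, 9.14% and 6.47% in TUC DO, 7.39% and 6.15% in TL IH, and 11.8% and 9.47% in TUC IH. The share of new intronic reads was 84.4% ± 1.26 in TL IH and 87.9% ± 1.29 in TUC IH, and 46.7% ± 11.9 in TL DO and 44.4% ± 11.8 in TUC DO (SD, n = 2 each). These shares overlapped in DO and did not in IH, and their average difference was 0.68 points (two-sided exact permutation p = 0.833). This difference changed sign to -16.8 points with a background rate estimated in the labelled library, and ran from -3.54 to 4.90 with 1 library left out, being -3.54 without TL DO replicate 2 and -3.48 without TUC DO replicate 1.

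In nuclear exons the mutation rate of new reads was 5.41% and 4.22% in TL DO, 7.60% and 6.03% in TUC DO, 6.59% and 5.39% in TL IH, and 10.0% and 7.95% in TUC IH. The share of new exonic reads was 12.4% ± 3.19 in TL DO, 13.2% ± 3.70 in TUC DO, 26.98% ± 0.263 in TL IH and 30.3% ± 2.06 in TUC IH (SD, n = 2 each). It differed by 2.06 points on average (7 of 8 pairs higher, two-sided exact permutation p = 0.222). With 1 library left out the difference was 0.75 to 3.37 points, lowest without TUC DO replicate 1 and highest without TUC DO replicate 2.

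Mitochondrial RNA had the lowest mutation rate of new reads of the 4 classes with both chemistries. It was 2.68% and 2.09% in TL DO, 3.41% and 3.02% in TUC DO, 3.64% and 2.96% in TL IH, and 5.26% and 4.26% in TUC IH. The groups did not overlap within a handling. The share of new mitochondrial reads was 46.2% and 36.3% in TL DO, 43.8% and 36.2% in TUC DO, 42.0% and 41.8% in TL IH, and 39.5% and 38.4% in TUC IH, so that it was higher with OsO4 + NH3 in only 1 of 8 pairs (difference -2.08 points, two-sided exact permutation p = 0.389). With a background rate estimated in the labelled library the difference was -5.10 points, and without TL DO replicate 1 it was 0.40.

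The rDNA contigs were the class in which the estimated share of new reads was lower with OsO4 + NH3 in every pair. It was 49.4% and 36.2% in TL DO, 35.0% and 24.5% in TUC DO, 54.6% and 51.2% in TL IH, and 43.6% and 40.9% in TUC IH. The difference was -13.1 points in DO and -10.6 in IH (0 of 8 pairs higher, two-sided exact permutation p = 0.0556). Averaged over handlings it was -11.8 points, and -23.2 with a background rate estimated in the labelled library. The plain converted share there was 33.1% with NaIO4 + TFEA and 32.3% with OsO4 + NH3 (two-sided exact permutation p = 0.667). The background moved with this result: in unlabelled libraries the T-to-C rate on the rDNA contigs was 0.315% in TL DO, 0.452% in TUC DO, 0.211% in TL IH and 0.379% in TUC IH. T positions per read differed by -0.80 there, with OsO4 + NH3 higher in 0 of 8 pairs. The part of either in the estimate was not tested.

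**Figure D3:**
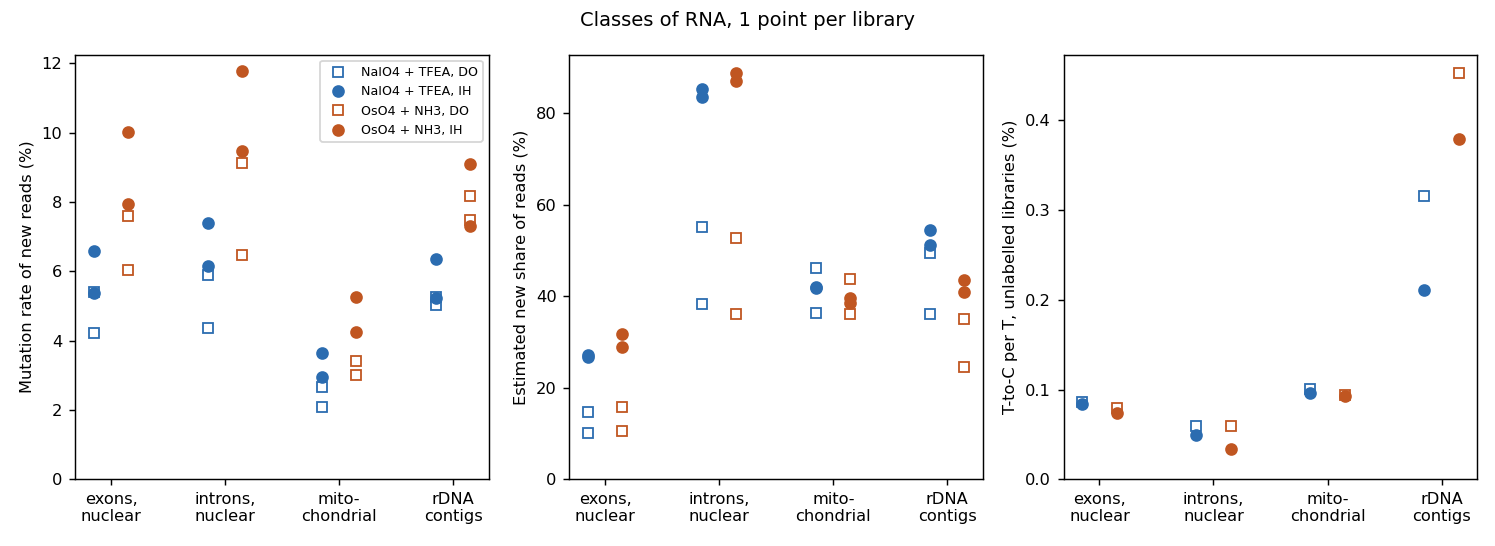
Mutation rate of new reads, estimated share of new reads and the T-to-C rate of unlabelled libraries in 4 classes of RNA, 1 point per library, with open squares for DO and filled circles for IH. Within a handling, all OsO4 + NH3 libraries lie higher in mutation rate in each class. They also lie lower in new share on the rDNA contigs within a handling, where their unlabelled T-to-C rate is also higher.

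The chemistries also differed in which RNA the libraries held. Intronic reads were 21.8% and 22.8% of TL DO, 25.8% and 24.2% of TUC DO, 38.6% and 37.4% of TL IH, and 45.2% and 41.3% of TUC IH (difference 3.99 points, 8 of 8 pairs higher, two-sided exact permutation p = 0.0556, adjusted 0.111). The unlabelled libraries differed in the same direction by 0.53 points in DO and 1.04 in IH. Of the intronic reads assigned to a gene, many lay on the rDNA contigs in DO. These were 59.2% and 67.8% in TL and 61.3% and 68.4% in TUC, against 6.35% to 8.24% in IH. Without the rDNA contigs, intronic reads were 13.07% and 12.02% of TL DO, 15.94% and 13.15% of TUC DO, 38.1% and 37.1% of TL IH, and 45.8% and 41.2% of TUC IH. The groups again did not overlap, and the difference was 3.95 points (two-sided exact permutation p = 0.0556). The unlabelled libraries without these contigs held 13.2% in TL DO, 13.6% in TUC DO, 38.8% in TL IH and 40.8% in TUC IH. Reads on the rDNA contigs were 30.6% and 35.6% of TL DO, 37.4% and 39.7% of TUC DO, 6.90% and 6.49% of TL IH, and 8.59% and 8.72% of TUC IH (difference 3.69 points, 8 of 8 pairs higher, two-sided exact permutation p = 0.0556, adjusted 0.111). Here the unlabelled libraries differed by as much or more, 7.04 points in DO and 2.25 in IH. These are shares of a library's reads, so a gain in 1 class and a loss in the others cannot be told apart.

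Across genes, the converted share of exonic reads was higher with OsO4 + NH3 for most genes, by little, and no single gene passed the test. A minimum of 50 exonic reads in every labelled library of both chemistries left 2414 genes, which had a median converted share of 11.7% and 8.54% in TL DO, 13.4% and 9.64% in TUC DO, 21.5% and 19.8% in TL IH, and 26.6% and 22.5% in TUC IH. In the unlabelled libraries this median was 2.13% to 2.85%. Of the genes, 1993 had a positive log2 odds ratio and 421 a negative one, with a median of 0.28 and quartiles of 0.08 and 0.48. With edgeR's quasi-likelihood test 0 of 2414 genes (0%) had an adjusted p under 0.05, and 206 had an unadjusted p under it; DESeq2 called 0 as well. In 224 genes (9.28%) both TUC libraries lay above both TL libraries in each handling, and in 4 (0.166%) below. The direction depended on the alignment: with HISAT2 VL the median log2 odds ratio was -0.03, and edgeR called 3 genes, all of them lower with OsO4 + NH3.

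Genes renewed at different speeds were then set side by side. They were split into 5 bins by their converted share in the labelled IH libraries of another chemistry, iodoacetamide alkylation, which are not among the libraries compared but share the spread in the same fit. From the slowest to the fastest bin, the median log2 odds ratio of the converted share went from 0.22 to 0.38, while that of the estimated new share lay between -0.02 and 0.06. In the slowest bin the median converted share was 10.5% in TL IH and 12.4% in TUC IH, and in the fastest bin 39.3% and 45.1%. These are descriptions with no test. The new share of single genes, which takes each library's mutation rate into account, had a median log2 odds ratio of 0.03, with 1265 genes above 0 and 1149 below, and limma called 0 of 2414 genes (0%) with 65 at an unadjusted p under 0.05. Its median was -0.02 in DO and 0.08 in IH. The old rates behind it came from all reads of the unlabelled libraries, though the gene reads were exonic. In DO these rates were 0.133% for TL and 0.172% for TUC, beside 0.0866% and 0.0802% in unlabelled exonic reads. In IH they were 0.0739% and 0.0719%, beside 0.0844% and 0.0748%.

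The new share of genes varied with the number of T positions in their reads. In the bin of genes with the fewest T positions per read (14.2 to 28.4) the median log2 odds ratio of the new share was -0.11, and in the bin with the most (37.8 to 50.4) it was 0.22. The converted share had medians of 0.25 and 0.34 in the same bins. These values were not tested.

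No gene was called for a different response of its converted share to handling between the chemistries (0 of 2414, 0%, edgeR interaction test, 41 at an unadjusted p under 0.05). T-to-C mismatches per T position, a measure added after the data were seen, were higher with OsO4 + NH3 in 2247 of 2414 genes with a median log2 ratio of 0.54, and limma called 0 genes (0%) with 364 at an unadjusted p under 0.05. Both TUC libraries lay above both TL libraries in each handling in 447 genes (18.5%), and below in 1 (0.0414%).

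The number of mismatches per converted read was the gene-level measure that separated the chemistries, and it too was added after the data were seen. A minimum of 20 converted exonic reads in each of these 8 libraries left 798 genes, which had a median of 1.84 and 1.53 mismatches per converted read in TL DO, 2.28 and 1.87 in TUC DO, 2.27 and 2.00 in TL IH, and 3.06 and 2.54 in TUC IH. Of these genes, 789 were higher with OsO4 + NH3 on average, with a median log2 ratio of 0.34. Limma called 189 of them (23.7%), all of them higher with OsO4 + NH3, with log2 ratios from 0.42 to 0.85 and a median of 0.53. In 323 genes (40.5%) every TUC library lay above every TL library of its handling, and in 0 genes (0%) the reverse held. The count rests on few libraries: it fell to 0 without TL IH replicate 2 and without TUC IH replicate 1, to 6 without TL DO replicate 2 and without TUC DO replicate 1, and rose to 324 without TUC DO replicate 2 and to 514 with a replicate block. Within 1 handling limma called 4 genes in DO and 0 in IH.

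The gene with the largest ratio, ENSG00000112242 on chromosome 6, is the extreme of these genes. Its converted exonic reads carried 1.66 and 1.90 mismatches in TL DO, 3.85 and 3.75 in TUC DO, 2.74 and 2.36 in TL IH, and 4.58 and 3.27 in TUC IH. All TUC values lay above all TL values of either handling. The log2 ratio was 0.85 (SE 0.16, limma adjusted p = 0.00732), 1.09 in DO and 0.61 in IH. The call was lost without TL IH replicate 2 (adjusted p = 0.0544) and without TUC IH replicate 1 (adjusted p = 0.110).

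Of the genes of the mitochondrial genome, 14 passed both minimums. All 14 had a higher converted share and more mismatches per converted read with OsO4 + NH3 on average, with median log2 values of 0.42 (odds ratio) and 0.26 (ratio), beside 0.28 and 0.34 over all genes tested. Over all genes tested, 82.6% and 98.9% were higher in these measures. Their mean converted share in IH ran from 4.76% to 63.4% with NaIO4 + TFEA and from 6.13% to 71.4% with OsO4 + NH3. The log2 odds ratio of their new share was above 0 in 7 genes and below in 7, with a median of -0.02, where 52.4% of all genes were above 0. The new share of a gene used its library's mutation rate over all new reads, 4.84% to 11.2%. Mitochondrial new reads had 2.09% to 5.26%, and the effect of this gap was not tested. Of the 14, limma called 1 for mismatches per converted read, where 23.7% of all genes tested were called, and edgeR called 0 for the converted share, where 0% were.

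**Figure D4:**
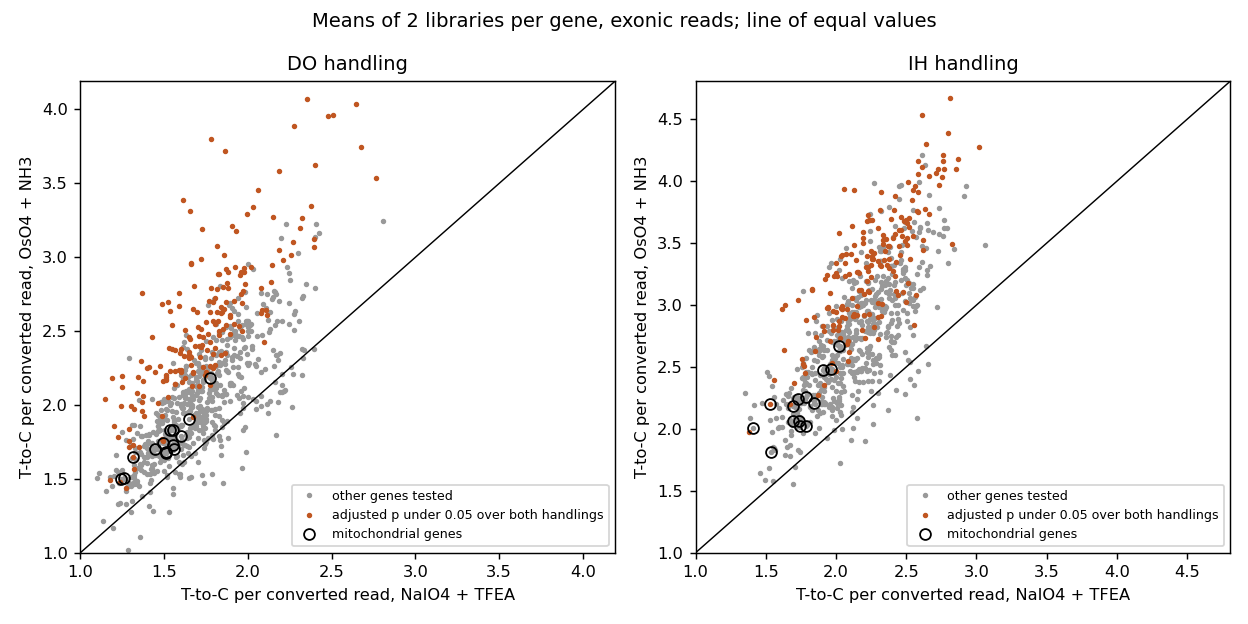
T-to-C mismatches per converted read of 798 genes with NaIO4 + TFEA (horizontal) and OsO4 + NH3 (vertical), as means of 2 libraries in DO (left) and IH (right), with the line of equal values. Nearly the whole cloud lies above the line, and the 14 mitochondrial genes lie between 1.24 and 2.02 with NaIO4 + TFEA and between 1.496 and 2.67 with OsO4 + NH3.

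Few of the genes tested were called for their counts. Of 12449 genes tested, edgeR's quasi-likelihood test called 1 in labelled libraries (0.00803%), lower with OsO4 + NH3, and 815 had an unadjusted p under 0.05. The count was 4 with DESeq2, 27 without a filter on low counts, 10 with a replicate block, and 0 to 3 with a library left out. In unlabelled libraries it called 1 (0.00803%), higher with OsO4 + NH3, with 508 at an unadjusted p under 0.05, and DESeq2 called 2. Each unlabelled group held 1 library, so these p-values, and those of the s4U effect, rest on the spread between labelled replicates. In labelled libraries both TUC values lay above both TL values in each handling in 489 genes (3.93%) and below in 506 (4.06%). The median log2 fold change was 0.01 in labelled and -0.03 in unlabelled libraries. The s4U effect on counts, the difference between the labelled and the unlabelled contrast, differed for 0 genes (0%) with 396 at an unadjusted p under 0.05, and DESeq2 also called 0.

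The gene that fell in labelled libraries was ENSG00000236824 on chromosome 2. It was also lower with OsO4 + NH3 in unlabelled libraries, where it was not called. Its s4U effect on counts, the difference between these contrasts, was a log2 of -0.26 (SE 0.35). It had 455 and 463 CPM (exonic reads of the gene scaled to a common library total) in TL DO, 163 and 138 in TUC DO, 103 and 88.1 in TL IH, and 35.1 and 38.5 in TUC IH, so the chemistries did not overlap. Its log2 fold change was -1.49 (SE 0.20, edgeR adjusted p = 0.00225). The unlabelled libraries had 243 CPM in TL DO, 99.02 in TUC DO, 56.2 in TL IH and 24.99 in TUC IH, a log2 fold change of -1.23 (SE 0.29, edgeR adjusted p = 0.699). The labelled call was lost without TUC DO replicate 2, TUC IH replicate 1 or TUC IH replicate 2, with edgeR adjusted p-values of 0.0534, 0.106 and 0.0657.

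The gene that was higher in unlabelled libraries, ENSG00000200795 on chromosome 12, was named after its values were seen, since it had under 100 exonic reads on average in the labelled libraries. It had 62.6 CPM in TL DO, 240.1 in TUC DO, 7.79 in TL IH and 33.0 in TUC IH without label, a log2 fold change of 2.01 (SE 0.31, edgeR adjusted p = 0.0163). With label it had 79.8 and 131.1 CPM in TL DO, 158 and 254.0 in TUC DO, 7.69 and 6.24 in TL IH, and 26.9 and 22.8 in TUC IH, a log2 fold change of 1.38 (SE 0.24, edgeR adjusted p = 0.0555). The unlabelled call was lost without any 1 of the 4 labelled IH libraries, which share the estimate of the spread, with adjusted p-values from 0.0518 to 0.0607.

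Counts of mitochondrial genes were then set against those of all genes. Of 20 mitochondrial genes tested, 16 had a negative log2 fold change in labelled libraries and 15 in unlabelled ones. Of all 12449 genes tested, 6112 and 6691 had a negative one. The mitochondrial medians were -0.19 and -0.29, beside 0.01 and -0.03 over all genes tested. None of the 20 was called by edgeR, where 1 gene in all was called in each contrast.

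Degradation rate constants were compared in the authors' deposited table, which gives 1 value from bakR per transcript, chemistry and handling, with no stated time unit. The authors' deposited table holds 2262 transcripts for OsO4 + NH3, 2209 for NaIO4 + TFEA (named TimeLapse there) and 1940 for both. Differences between chemistries have no replicates here, so they are described without a test. Of 13 markers of HEK293 cells, the authors' deposited table holds 6 in at least 1 chemistry, VIM, NEFL, NEFM, KRT18, GATA2 and MYH10. INA, PAX2, LHX1, KRT8, GATA3, HOXA9 and HOXA10 are absent from it. It holds 0 of 6 blood, 0 of 3 liver and 0 of 5 fibroblast markers. With so few transcripts in the authors' deposited table, absent markers do not test the cell line.

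Rate constants of the 2 chemistries were close in order and in level. Across the 1940 transcripts of the authors' deposited table, Spearman's rho between the chemistries was 0.904 in DO and 0.935 in IH, beside 0.779 and 0.789 between the handlings of 1 chemistry; transcripts share their libraries, and no p is given. The median log2 ratio of OsO4 + NH3 over NaIO4 + TFEA in the authors' deposited table was -0.02 in DO and -0.02 in IH. In the authors' deposited table, 92.8% of transcripts lay within 2-fold in DO and 98.0% in IH. The log2 ratio in DO and that in IH had a rho of only 0.119 across transcripts of the authors' deposited table. A transcript was above at both handlings in 485 cases (25.0%) and below at both in 580 (29.9%) in the authors' deposited table. On average past 1.5-fold and in 1 direction at both handlings, 88 (4.54%) were above and 74 (3.81%) below in the authors' deposited table.

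Over all transcripts, IH gave higher constants than DO at the median with both chemistries. The median log2 ratio of IH over DO was 1.19 for OsO4 + NH3 and 1.19 for NaIO4 + TFEA in the authors' deposited table. Some lists differed from this in the authors' deposited table, with medians of -1.03 and -0.76 for small structured RNAs, -0.415 and -0.229 for short-lived messages, 0.03 and 0.07 for mitochondrial RNAs and -0.03 and 0.075 for histones. By the adjusted p-values of the authors' deposited table, 983 of the 1940 transcripts changed with handling for OsO4 + NH3 (their p under 0.05) and 1079 for NaIO4 + TFEA, and 796 were in both sets, 81.0% of the first and 73.8% of the second.

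Small structured RNAs made by RNA polymerase III, among them the RNA components of RNase MRP (RMRP) and RNase P (RPPH1), had lower rate constants with OsO4 + NH3. All 5 members in the authors' deposited table lay below at both handlings, beside 29.9% of all transcripts, with a median log2 ratio of -0.39 beside -0.02. Their constants were low, with medians of 0.0202 and 0.0242 in DO and 0.00990 and 0.0142 in IH. Over all transcripts of the authors' deposited table the medians were 0.0401 and 0.0407 in DO and 0.0981 and 0.0979 in IH. Whether such low constants stand above background mismatches was not tested. For RN7SL1, the RNA of the signal recognition particle, the authors' deposited table gives 0.0202 and 0.0242 in DO (OsO4 + NH3, then NaIO4 + TFEA) and 0.00990 and 0.0142 in IH. For its near-identical copy RN7SL2, whose reads may be shared with it, the authors' deposited table gives 0.0145 and 0.0191 in DO and 0.0223 and 0.0319 in IH. For 7SK (RN7SK), the scaffold that holds the elongation factor P-TEFb inactive, the values in the authors' deposited table were 0.0222 and 0.0331 in DO and 0.0165 and 0.0196 in IH. RMRP and RPPH1 had mean log2 ratios of -0.19 and -0.20 in the authors' deposited table.

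Among noncoding hosts of small nucleolar RNAs, of 6 in the authors' deposited table, 4 lay above at both handlings (66.7%, beside 25.0% of all transcripts) and 1 below (16.7%, beside 29.9%), with a median log2 ratio of 0.36. SNHG1 had 0.146 and 0.0887 in DO (OsO4 + NH3 first) and 0.314 and 0.269 in IH in the authors' deposited table. SNHG3 had 0.0612 and 0.0481 in DO and 0.133 and 0.0918 in IH in the authors' deposited table. GAS5 differed in sign between the handlings of the authors' deposited table, with log2 ratios of -0.57 in DO and 0.78 in IH.

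Short-lived messages had high constants with both chemistries. Of 4 in the authors' deposited table, 3 lay below at both handlings (75%, beside 29.9% of all transcripts) and 0 above (beside 25.0%), with a median log2 ratio of -0.17 beside -0.02. JUN, an immediate early transcription factor, had 1.02 and 1.04 in DO and 0.563 and 0.668 in IH in the authors' deposited table. PPP1R15A, which directs dephosphorylation of the initiation factor eIF2α, had 0.772 and 0.963 in DO and 0.648 and 0.813 in IH in the authors' deposited table. Of 15 zinc finger genes in the authors' deposited table, many of them short-lived, 9 lay below at both handlings (60%, beside 29.9% of all transcripts) and 2 above (13.3%, beside 25.0%), with a median log2 ratio of -0.13.

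Stable messages lay on both sides. Of 69 cytoplasmic ribosomal protein genes in the authors' deposited table, 25 lay above (36.2%, beside 25.0% of all transcripts) and 16 below (23.2%, beside 29.9%) at both handlings, with a median log2 ratio of 0.07. Their median rate constants in the authors' deposited table were 0.0132 and 0.0125 in DO and 0.0329 and 0.0275 in IH. Of 25 glycolytic, cytoskeletal and other long-lived messages in the authors' deposited table, 8 lay above (32%) and 3 below (12%), with a median of 0.04. EEF2, translation elongation factor 2, was lowest among them, with a mean log2 ratio of -0.75, and TUBA1A, an alpha tubulin, highest, with 1.43, in the authors' deposited table. Of 25 nuclear genes of the respiratory chain in the authors' deposited table, 9 lay above and 9 below (36% each), with a median mean log2 ratio of -0.16, beside medians of -0.03 in DO and 0.02 in IH.

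Mitochondrially encoded RNAs and histone messages were described in the same way. Of 12 mitochondrial RNAs in the authors' deposited table, 3 lay above (25%, beside 25.0% of all transcripts) and 5 below (41.7%, beside 29.9%) at both handlings, with a median log2 ratio of -0.02. MT-CO1, a subunit of cytochrome c oxidase, had 0.120 and 0.114 in DO and 0.123 and 0.116 in IH in the authors' deposited table. MT-ND2, a subunit of complex I, had 0.428 and 0.437 in DO and 0.395 and 0.462 in IH in the authors' deposited table. Of 26 histone genes in the authors' deposited table, which include the replication-independent linker histone H1F0, 5 lay above (19.2%) and 12 below (46.2%), with a median of -0.07. The remaining lists held few members in the authors' deposited table: of 4 genes of SR splicing factors or CLK kinases 1 lay above and 1 below, and MALAT1, a nuclear long noncoding RNA, had a mean log2 ratio of 0.09.

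The largest differences in 1 direction at both handlings were these, with no error known. IGFBP2, an insulin-like growth factor binding protein, had 0.00853 and 0.0259 in DO and 0.0219 and 0.0464 in IH in the authors' deposited table. AAAS, a nuclear pore protein, GAA, the lysosomal alpha-glucosidase, LAMB1, a laminin chain, and MAP2K7, a kinase that activates JNK, had mean log2 ratios of -1.16, -1.04, -0.98 and -0.97 in the authors' deposited table. TUBA1A had 0.0298 and 0.0145 in DO and 0.0607 and 0.0172 in IH in the authors' deposited table. SSBP1, the mitochondrial single-stranded DNA binding protein, MCCC2, a subunit of methylcrotonyl-CoA carboxylase, MXRA7, and CALCOCO2, an autophagy receptor, had mean log2 ratios of 1.38, 1.29, 1.29 and 1.25 in the authors' deposited table.

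**Figure D5:**
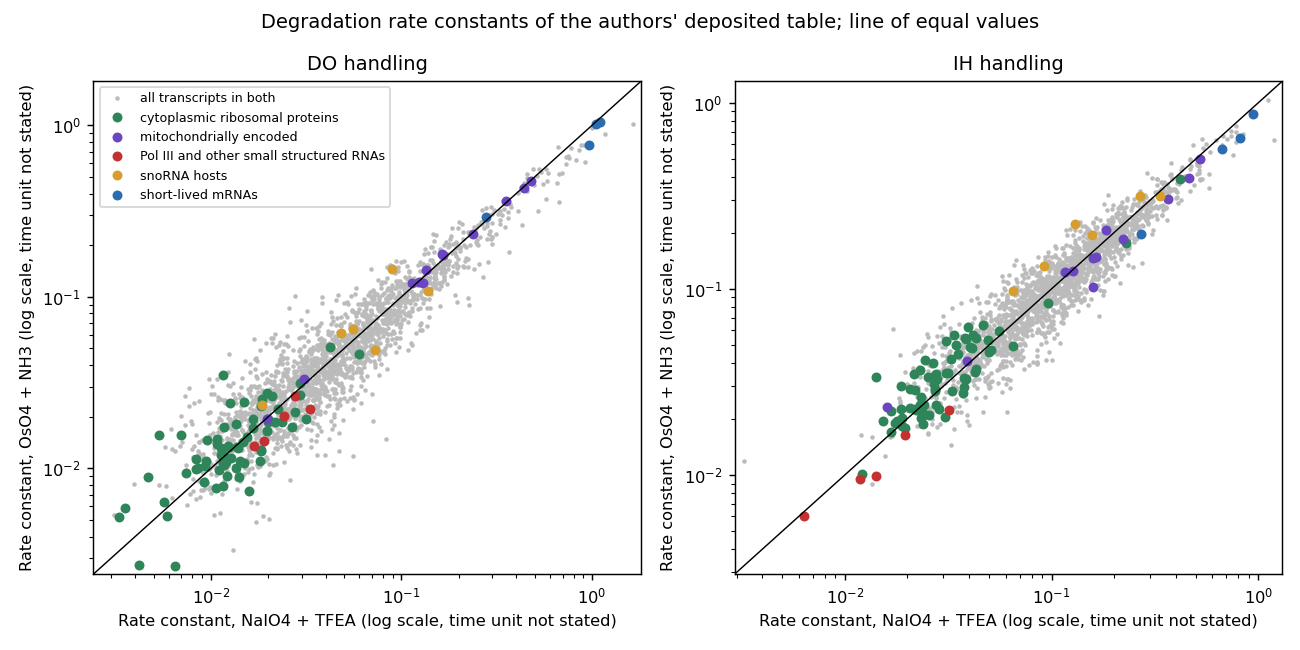
Degradation rate constants of the authors' deposited table for 1940 transcripts with NaIO4 + TFEA (horizontal) and OsO4 + NH3 (vertical) in DO (left) and IH (right), on log scales, with the line of equal values and 5 gene lists coloured. The transcripts follow the line in both handlings with a wider spread in DO, and the 5 Pol III and other small structured RNAs lie below it.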

How the data were processed

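The deposited counts are read numbers split by library, by alignment (aligner and settings code), by contig, gene and intronic flag, and by the T-to-C and T-position numbers of a read, per the labels. A deposited bakR table gives rate constants, their log2 change with handling and, for it, an adjusted p-value from the authors. The submitters' processing notes name cutadapt, HISAT2, STAR, HISAT, Picard, HTSeq, DESeq2 and GRCh38. Versions, the meaning of the settings codes and how reads that fit several genes were counted are not given in the sources used here. HISAT-3N alignments with setting D were used. Reads without a gene were 17.5% to 37.8% of a library and entered library values but no gene test. All per-sample columns were used. The count table's Ensembl identifiers could not be paired with symbols here, so gene lists were read only in the rate constants, where 1916 of 1940 names matched a symbol. The other 10 samples of the series were not analysed here.

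Group differences of library values were tested by exact permutation within handling, with Benjamini-Hochberg adjustment over 8 measures. The 2-component binomial mixture took the old rate from the matching unlabelled library, and new shares of genes were held between 0.01 and 0.99. Shares of single genes used each library's old and new rates over all reads. Counts were fitted with edgeR 4.0.16 (TMM, filterByExpr, quasi-likelihood, 12449 of 24678 genes) over 18 libraries in 12 groups, 6 of them libraries of iodoacetamide chemistry that share the spread. Converted shares were fitted in edgeR as converted against other reads, each library having its own term, over 12 labelled libraries. New shares and mismatch ratios were fitted with limma 3.58.1 on log2 or logit values, with 0.5 added to counts before logs. Adjusted p-values are Benjamini-Hochberg over all genes tested, called under 0.05. DESeq2 1.42.0 served as an alternative (R 4.3.3, Python 3.11.15). Fits were also run on simulated data, and the outcome is not reported here.

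Genes named from the count table were the largest called effects with the same sign in DO and IH and at least 100 exonic reads on average, limited to 2 identifiers per direction. In the rate constants they were the 5 largest ratios per direction and list members. The members and lists were chosen with earlier results of these data known. Alternatives were single handlings, left-out libraries, other alignments, filters, scalings, read classes and a replicate term.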

Additional observations from a re-analysis of the deposited data

How the results depend on the processing

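Leaving out 1 labelled library in turn kept the sign of the converted share (4.10 to 7.22 points), T-to-C per T (1.17 to 2.12), mismatches per converted read (0.77 to 1.22), the mutation rate of new reads (2.46 to 3.59), the intronic share (3.02 to 4.96) and the rDNA contig share (2.45 to 4.93). Other alignments kept the signs of the first 3, with converted shares differing by 1.03 (HISAT2 D) to 5.79 points (STAR VL). The new share of all reads (left-out range 0.23 to 3.75) reversed within DO (-1.42) and in intronic gene reads (-2.58), both with rDNA contig reads included. Without the rDNA contigs it was 0.75 within DO, and 0.68 in nuclear introns, which leave these contigs out. T positions per read (-0.0225 to 0.65) reversed within DO (-0.29) and, at -0.0225, without TL DO replicate 2. In RNA classes, left-out libraries reversed the new share in nuclear introns (-3.54 to 4.90) and mitochondria (-4.57 to 0.40) and the converted share on rDNA contigs (-2.64 to 1.02, with 1.02, 0.57, 0.29 and 0.49 without TL DO replicate 1, TL IH replicate 1, TUC DO replicate 2 and TUC IH replicate 2). With the background rate estimated in the labelled library, a setting chosen after seeing the data as were all for RNA classes and mismatch ratios, the new share on rDNA contigs differed by -23.2 points and that in nuclear introns reversed to -16.8. The cause was not tested.

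Labelled count calls were 0 within DO and within IH, 2 with DESeq2 size factors, 27 without a filter, 6 over all reads of a gene, 4 with STAR D, 3 in the 12 libraries alone, 4 with DESeq2 and 0 to 3 with a library left out. Unlabelled calls were 0, 0, 6 without a filter, 4 over all reads, 3 with STAR D, 0 in the 12 libraries alone, 2 with DESeq2 and 0 to 2 with a library left out; the s4U effect had 1 without a filter. The converted share had 3 calls with HISAT2 VL, where all 3 were lower and the median log2 odds ratio was -0.03, and 0 to 3 with a library left out; the new share had 1 over all reads of a gene. Mismatches per T position had 0 to 14 calls, and mismatches per converted read 4 within DO, 0 within IH and 0 to 324 with a library left out.

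Replicate numbers were not taken as pairing, since only 2 exist and the labels tie them to nothing shared. Even so, replicate 1 lay above replicate 2 in every labelled TL and TUC group in the converted share and T-to-C per T position. The same order held for mismatches per converted read, the mutation rate of new reads and the new share. The permutation tests did not pair by number, so this shared order counted as spread in them. Deviations of counts from group means correlated across genes at 0.66 between TL DO and TUC DO and at 0.04 to 0.08 between the other groups. The converted share was higher with OsO4 + NH3 in 4 of 4 same-numbered pairs. The new share in DO was lower with OsO4 + NH3 in both same-numbered pairs, at 25.0% against 26.2% and 17.9% against 19.5%. With a replicate block, calls were 10 for labelled counts (1 in the same libraries without it), 1 for the converted share, 0 for its handling response and for the new share, and 514 for mismatches per converted read. No replicate block was fitted for unlabelled counts and the s4U effect, whose groups hold 1 unlabelled library. Depth limits the gene tests: 2414 of 24678 genes reached 50 reads in each labelled library.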
